A study of Mus musculus with 6 samples.

Results

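The genes described here are 8 genes that mark the projection neurons of the striatum, the large nucleus beneath the cortex: Drd1, Drd2, Adora2a, Penk, Tac1, Ppp1r1b, Rgs9 and Pde10a. They were chosen from knowledge of these neurons and from earlier readings of the same libraries, as a check of which brain region the dissected cortical tissue held, so the values below are a description and no test was made on them. Of the 8 genes, 7 had a value in every library, and Drd1 had none in any library, among 15441 genes with a value in at least 1 library and 11750 with a value in all 6.

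The libraries came from male C57/BL6J mice, 6 to 8 weeks old, that received a cortical stroke by photothrombosis, in which light shone through the intact skull closes the vessels of the sensorimotor cortex after an injection of the dye Rose Bengal. The whole ipsilateral cortex was taken at day 1, 3, 7, 14 or 28 post-stroke, and the control was the same tissue of sham-operated mice, which were not illuminated, at day 7 after the operation. The RNA of 3 mice was pooled for each of the 6 groups, so each group was 1 library and all 5 comparisons shared the same sham library. No value has a replicate check, and a difference between libraries cannot be told apart from a difference between dissections or between pools. The values are the authors' FPKM, counts of fragments scaled to transcript length and to library size, which allow levels of different genes to be compared per length, and a ratio to sham is given as log2((FPKM + 0.1)/(sham FPKM + 0.1)).

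Nearly all neurons of the striatum are GABAergic projection neurons of 2 kinds. Those of the direct pathway carry the dopamine receptor D1 and the peptide precursor of substance P, and those of the indirect pathway carry the dopamine receptor D2, the adenosine receptor gene Adora2a and the enkephalin precursor. Both kinds hold a common set of cAMP-signalling proteins: dopamine through D1 receptors raises cAMP, and D2 receptors lower it. The cortex uses several of these genes too, though in fewer cells: enkephalin and tachykinin transcripts occur in cortical interneurons, and DARPP-32 occurs in deep-layer neurons. In pooled tissue, fewer cells of a type and less RNA per cell cannot be told apart.

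Each value in the files belongs to a transcript start, an end or a splicing event of a gene, and 3 of the listed splicing events of these genes concern a short coding exon with a known function. These exons are shown because their inclusion was measured in nearly every library. The Drd2 exon codes 29 residues of the third cytoplasmic loop, which the long D2 receptor has and the short D2 receptor lacks. Of the Tac1 exons, exon 4 codes part of the extension that makes neuropeptide K longer than neurokinin A, and exon 6 codes neurokinin A. The sequences below are from GENCODE M21 transcripts on GRCm38, the build of the files, with the exon in capitals and 12 coding bases of each neighbouring exon in lower case.
Drd2, exon 6 of 8, chr9:49403194-49403280, plus strand, 87 bases: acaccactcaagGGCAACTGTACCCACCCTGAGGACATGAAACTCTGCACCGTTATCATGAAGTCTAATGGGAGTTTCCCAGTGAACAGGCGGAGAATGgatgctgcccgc
Tac1, exon 4 of 7, chr6:7557216-7557260, plus strand, 45 bases: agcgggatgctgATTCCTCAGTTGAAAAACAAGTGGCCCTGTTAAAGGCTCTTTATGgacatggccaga
Tac1, exon 6 of 7, chr6:7559099-7559152, plus strand, 54 bases: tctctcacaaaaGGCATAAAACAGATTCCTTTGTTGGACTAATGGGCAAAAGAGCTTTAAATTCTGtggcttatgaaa
The lengths of all 3 exons are multiples of a codon, so leaving any of them out keeps the reading frame.

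Of the receptors, Drd1 (chr13:54051183-54055705, minus strand) had no value in any library. This does not show that the gene was silent, because 24 of the 223 genes on the lists used here, Drd1 included, had none, 2 of them because their symbols matched no identifier. Tubb3, Neurod2 and Mobp, named as examples after their values were seen, were among them and are abundant in neurons, cortical neurons and myelin. Of the other striatal genes, Gpr6, a receptor of these neurons, likewise had no value. Among the 8 genes, the direct pathway was therefore followed by Tac1 alone, which cortical interneurons use too. Isl1, a direct-pathway gene of another list, is described below.

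Drd2 (chr9:49340627-49408177, plus strand), the inhibitory dopamine receptor of the indirect pathway, had 8.15 FPKM in sham, 7.31 on day 1, 8.59 on day 3, 10.4 on day 7, 14.1 on day 14 and 12.4 on day 28. It was lowest at day 1 and highest at day 14. Its log2 ratio to sham was -0.15 on day 1, 0.07 on day 3, 0.35 on day 7, 0.78 on day 14 and 0.60 on day 28.

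Adora2a (chr10:75316877-75334784, plus strand), an adenosine receptor that opposes D2 signalling in the same neurons, had 15.1 FPKM in sham, 11.2 on day 1, 12.9 on day 3, 14.8 on day 7, 20.7 on day 14 and 17.6 on day 28. Like Drd2 it was lowest at day 1 and highest at day 14. The log2 ratio was -0.42 on day 1, -0.22 on day 3, -0.02 on day 7, 0.45 on day 14 and 0.23 on day 28. The ratio of Adora2a to Drd2 within a library, which does not depend on the scaling between libraries, was 1.85 in sham, 1.53 on day 1, 1.502 on day 3, 1.42 on day 7, 1.47 on day 14 and 1.42 on day 28. Of the 8 within-library ratios computed between these genes it varied least, its highest value being 1.30 times its lowest.

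Of the peptide genes, Penk (chr4:4133531-4138819, minus strand), which codes proenkephalin, had 119 FPKM in sham, 154 on day 1, 130 on day 3, 146 on day 7, 205 on day 14 and 167 on day 28. Every post-stroke library was above sham, and day 14 was the highest. Its log2 ratio was 0.37, 0.13, 0.29, 0.78 and 0.48 on day 1, 3, 7, 14 and 28.

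Tac1 (chr6:7554879-7565834, plus strand), the precursor of substance P and neurokinin A, had 26.3 FPKM in sham, 38.2 on day 1, 38.9 on day 3, 41.4 on day 7, 44.9 on day 14 and 25.4 on day 28. It was high from day 1 to 14 and lay near sham at day 28, where the other 6 genes were above it. The log2 ratio was 0.54, 0.56, 0.65, 0.77 and -0.05 on day 1, 3, 7, 14 and 28. The ratio of Penk to Tac1 was 4.54 in sham, 4.03 on day 1, 3.35 on day 3, 3.52 on day 7, 4.57 on day 14 and 6.58 on day 28. Enkephalin transcripts were thus highest relative to tachykinin transcripts in the day 28 library.

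Of the signalling genes, Ppp1r1b (chr11:98348404-98357796, plus strand) codes DARPP-32, which inhibits protein phosphatase 1 once protein kinase A has phosphorylated it. It had the highest level of the 7 genes in 5 of the 6 libraries, with 217 FPKM in sham, 246 on day 1, 152 on day 3, 134 on day 7, 243 on day 14 and 288 on day 28. Only at day 7 was Penk above it. It was lowest at day 7, when Tac1, Drd2 and Penk were above sham, and its log2 ratio was 0.18, -0.52, -0.69, 0.17 and 0.41 on day 1, 3, 7, 14 and 28. Its highest library, day 28, was 2.15 times its lowest, the widest range of the 7 genes.

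Rgs9 (chr11:109225355-109298129, minus strand), which speeds the shut-off of G proteins coupled to D2 and opioid receptors, had 15.7 FPKM in sham, 16.1 on day 1, 12.9 on day 3, 16.0 on day 7, 16.5 on day 14 and 18.9 on day 28. Its highest library was 1.46 times its lowest, the narrowest range of the 7 genes. The log2 ratio was 0.03, -0.28, 0.02, 0.07 and 0.26 on day 1, 3, 7, 14 and 28.

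Pde10a (chr17:8525372-8986648, plus strand), the phosphodiesterase that breaks down cAMP and cGMP in both kinds of projection neuron, had 18.7 FPKM in sham, 13.2 on day 1, 18.7 on day 3, 19.0 on day 7, 13.8 on day 14 and 22.9 on day 28. The day 1 and day 14 libraries were low and the others lay at or above sham. Its log2 ratio was -0.50, 0.00, 0.02, -0.44 and 0.29 on day 1, 3, 7, 14 and 28, so at day 14 it stood on the other side of sham from the remaining 6 genes.

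**Figure D1:**
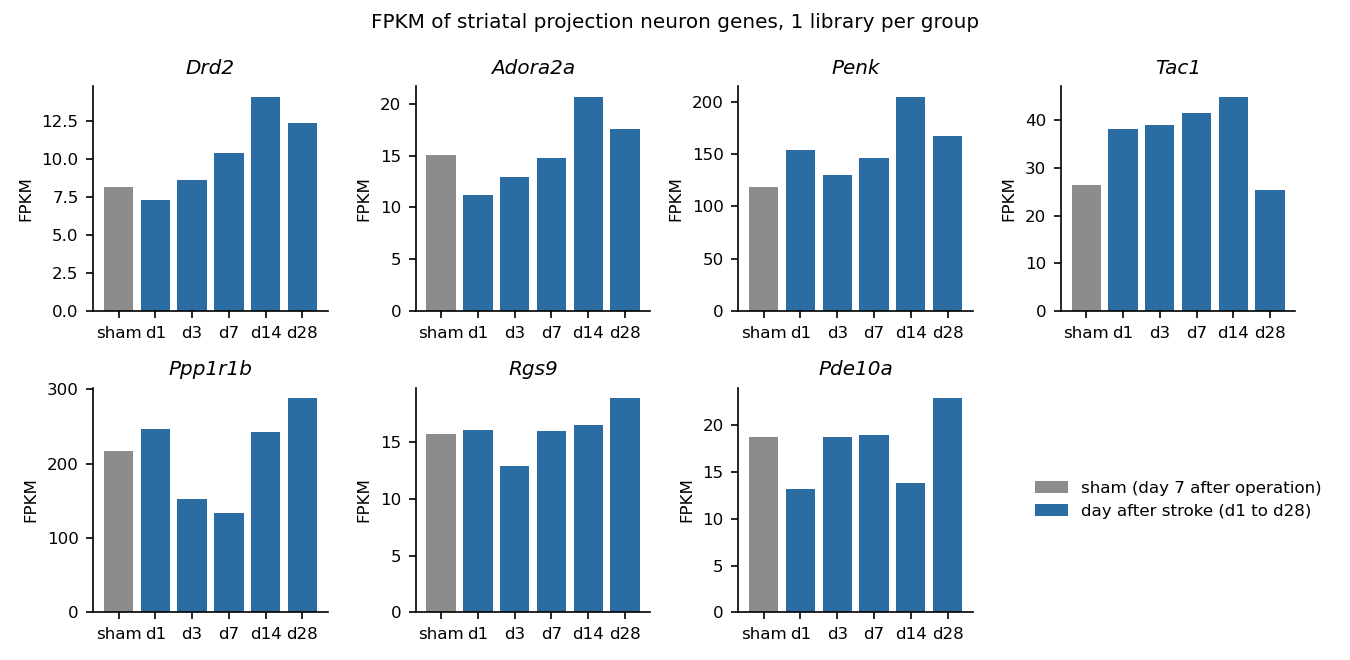
FPKM (vertical axes, from 0, a scale for each gene) of the 7 genes with a value in the sham library (grey) and in the libraries of day 1 to 28 post-stroke (blue, d1 to d28); each bar is 1 library of pooled RNA from 3 mice, so there are no error bars. Drd2, Adora2a, Penk and Tac1 were highest at day 14, and Ppp1r1b, Rgs9 and Pde10a at day 28.

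Counted together, none of the 7 genes differed from sham by 2-fold or more at any day. At day 1, 0 of 7 were at least 2-fold higher, beside 5.11% of all genes compared (those with at least 1 FPKM in 1 of the 2 libraries), and 0 of 7 were at least 2-fold lower, beside 4.48%. At day 3 the counts were 0 higher beside 8.54% of all genes, and 0 lower beside 2.53%. At day 7 they were 0 higher beside 8.53%, and 0 lower beside 2.12%. At day 14 they were 0 higher beside 8.97%, and 0 lower beside 6.92%. At day 28 they were 0 higher beside 3.68%, and 0 lower beside 2.79%. With shares this low among all genes, 0 of 7 is near the background and is no finding about these genes.

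The median log2 ratio of the 7 genes was 0.03 on day 1, 0.00 on day 3, 0.02 on day 7, 0.45 on day 14 and 0.29 on day 28, beside 0.01, 0.03, 0.03, 0.10 and 0.03 for all genes listed in both libraries and compared. The medians of day 1, 3 and 7 therefore lay near 0, and those of day 14 and 28 above it. At day 1 the genes split, 4 above sham and 3 below. The split was also 4 to 3 on day 3 and was 5 to 2 on day 7. It was 6 to 1 on day 14, with Pde10a below, and 6 to 1 on day 28, with Tac1 below. Several of these values were too close to 0 to give a direction. Rgs9 crossed to the other side of sham under another scaling with values of -0.02 on day 1, -0.01 on day 7 and -0.02 on day 14, as did Pde10a with -0.03 on day 3 and -0.02 on day 7.

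The 3 indirect-pathway genes, Drd2, Adora2a and Penk, had log2 ratios between 0.45 and 0.78 on day 14, while Ppp1r1b, Rgs9 and Pde10a, which both pathways use, lay between -0.44 and 0.17. At day 28 the ranges were 0.23 to 0.60 and 0.26 to 0.41. These 2 groups thus stood apart at day 14 and overlapped at day 28. Tac1, of the direct pathway, was at 0.77 on day 14, within the indirect-pathway range, and at -0.05 on day 28. The higher day 14 values were therefore not particular to the indirect pathway.

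**Figure D2:**
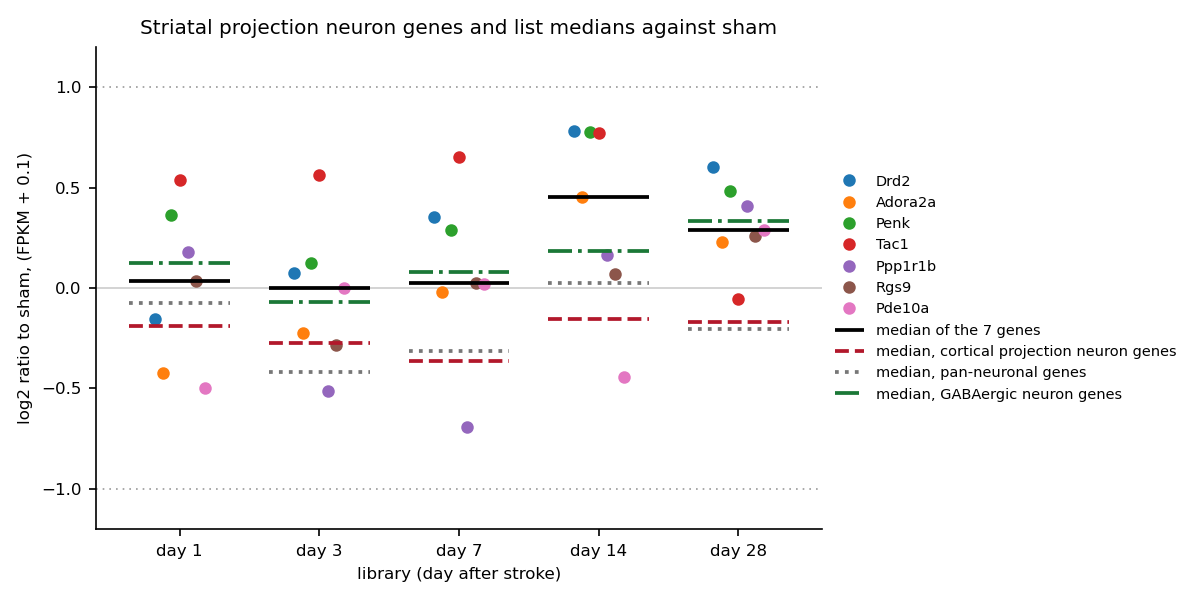
Log2 ratio of (FPKM + 0.1) to sham (vertical axis, dotted lines at a 2-fold difference) for the 7 genes (coloured points) in each post-stroke library (horizontal axis), with the median of the 7 genes (black) and the medians of cortical projection neuron, pan-neuronal and GABAergic neuron genes (broken lines). No point passes a 2-fold difference, and at day 14 the median of the 7 genes was 0.45 while that of the cortical projection neuron genes was -0.15.

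Transcript length moved with the day 14 values. Over all genes compared at day 14, the median log2 ratio was 0.39 in the fifth with the shortest transcripts (median length 1308 bases) and -0.26 in the fifth with the longest (median 6844 bases). The same medians were 0.15 and -0.19 on day 1, and at day 3, 7 and 28 they differed by at most 0.10. By its longest annotated transcript Penk was the shortest of the 7 genes (1449 bases) and Pde10a the longest (7769 bases), and they lay at 0.78 and -0.44 on day 14. After each library was divided by its trend over length, the day 14 log2 ratios were 0.57 for Drd2, 0.24 for Adora2a, 0.38 for Penk, 0.49 for Tac1, -0.12 for Ppp1r1b, 0.04 for Rgs9 and -0.17 for Pde10a. The sign of Ppp1r1b turned, and the median of the 7 genes went from 0.45 to 0.24. At day 28 the corrected median was 0.31.

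The labelled tissue was checked against defining genes of the cortex. Slc17a7, the vesicular glutamate transporter of cortical projection neurons, had 303 FPKM in sham, 299.8 on day 1, 248 on day 3, 231 on day 7, 164 on day 14 and 251 on day 28. Of the 18 cortical projection neuron genes on the list, 15 had a value, and 14 of them had one in every library, beside the striatal genes.

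The cortical projection neuron genes had a median log2 ratio of -0.19 on day 1, -0.28 on day 3, -0.36 on day 7, -0.15 on day 14 and -0.17 on day 28. Of the 15 compared, 11 lay below sham at day 1, 13 on day 3, 13 on day 7 and 11 on day 28, and at day 14 it was 11 of 14. Against sham the striatal genes had the higher median at every day, by 0.22, 0.28, 0.39, 0.61 and 0.46 on the log2 scale, but all 5 differences share the sham library. Against the day 28 library the order turned on day 1 (-0.23 for the striatal and -0.08 for the cortical genes), day 3 (-0.45 and -0.13) and day 7 (-0.25 and -0.19). Against the median of the other 5 libraries it turned on day 3 (-0.24 and -0.06), and on day 1 both medians were -0.03. The day 14 order did not turn under either base. Relative to Slc17a7 in the same library, Drd2 was 0.0269 in sham, 0.0244 on day 1 and 0.0346 on day 3. It was 0.0451 on day 7, 0.0859 on day 14 and 0.0495 on day 28, highest in the library with the highest Drd2 and the lowest Slc17a7. The rise was smaller over other references. Relative to Tbr1, also on the cortical list, Drd2 was 0.477 in sham and 0.969 on day 14. Relative to the GABAergic gene Gad1 it was 0.116 and 0.182. The summed FPKM of the 7 striatal genes over that of the 14 cortical list genes with a value in all 6 libraries was 0.683 in sham, 0.870 on day 1, 0.744 on day 3, 0.775 on day 7, 1.29 on day 14 and 1.00 on day 28. Ppp1r1b and Penk made up between 73.4% and 82.4% of the striatal sum. Slc17a7 made up 303 of the 616 FPKM of the cortical sum in sham and 164 of 434 on day 14.

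The pan-neuronal genes had a median log2 ratio of -0.07, -0.42, -0.31, 0.03 and -0.21 on day 1, 3, 7, 14 and 28. Rbfox3, which codes the neuronal nuclear protein NeuN, had 89.9 FPKM in sham, 103 on day 1, 66.1 on day 3, 66.8 on day 7, 91.5 on day 14 and 77.9 on day 28. Snap25, a protein of the synaptic release machinery, had 706 FPKM in sham, 670 on day 1, 495 on day 3, 512 on day 7, 486 on day 14 and 629 on day 28. Set against the median of the pan-neuronal list, the striatal median was 0.42 on day 3 and 0.33 on day 7 instead of 0.00 and 0.02. At day 3 and 7, then, the median of the 7 genes was near 0, with Tac1 above sham and Ppp1r1b below it, while the median of the general neuronal genes was below 0.

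The GABAergic neuron genes, which striatal projection neurons and cortical interneurons share, had medians of 0.12, -0.07, 0.08, 0.19 and 0.33 on day 1, 3, 7, 14 and 28. Gad1, which makes GABA, had 70.3 FPKM in sham, 82.2 on day 1, 60.6 on day 3, 67.2 on day 7, 77.3 on day 14 and 86.5 on day 28. Of the 10 GABAergic genes, 6 lay above sham on day 1, 3 on day 3, 6 on day 7, 7 on day 14 and all 10 on day 28. The striatal median was within 0.10 of the GABAergic median at day 1, 3, 7 and 28, and was 0.27 above it at day 14.

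Among the cortical interneuron genes, which bear on Penk and Tac1, the median was -0.10, -0.33, -0.43, 0.72 and -0.19 on day 1, 3, 7, 14 and 28. Pvalb, the parvalbumin of fast-spiking interneurons, had 47.5 FPKM in sham, 43.6 on day 1, 37.8 on day 3, 33.4 on day 7, 46.3 on day 14 and 39.6 on day 28. Calb2, calretinin, had 10.8 FPKM in sham, 27.3 on day 1, 9.78 on day 3, 16.7 on day 7, 23.0 on day 14 and 17.3 on day 28. At day 14 the interneuron median was thus above the striatal one, but the list was split, with 6 of 9 genes above sham and 3 below. Those below were Pvalb (-0.04), Npy (-0.22) and Vip (-0.44), and Calb2 (1.08) was the only gene at least 2-fold higher. The part of interneuron RNA in the values of Penk and Tac1 was not tested.

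Of 34 other striatal projection neuron genes, 28 had a value. Their median log2 ratio was -0.08 on day 1, -0.02 on day 3, -0.00 on day 7, 0.14 on day 14 and 0.24 on day 28. Above sham lay 9 of 23 compared on day 1, 11 on day 3, 11 on day 7 and 14 on day 14, with 9 below. At day 28, 21 of 24 lay above sham. The medians of all genes listed in both libraries and compared were 0.10 on day 14 and 0.03 on day 28. At day 14, 2 of 23 were at least 2-fold higher, beside 8.97% of all genes, and 0 were 2-fold lower. At day 28, 2 of 24 were at least 2-fold higher, beside 3.68% of all genes, and 0 lower. The day 14 count is near the background share. Those shares take genes not listed as 0, while the list counts leave them out. Over genes listed in both libraries the shares 2-fold higher were 7.69% at day 14 and 3% at day 28. Left out of the counts was Chrm4, not listed in sham, with 1.69 FPKM on day 14 and 3.53 on day 28. Foxp2, with 2.25 FPKM in sham, was not listed on day 14 and was left out there. Adcy5, the main adenylyl cyclase of the striatum, picked after its values were seen, had 35.5 FPKM in sham, 34.4 on day 1, 35.8 on day 3, 35.5 on day 7, 37.6 on day 14 and 43.1 on day 28. Adcy5 was nearly level up to day 14 and highest at day 28.

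Among the genes of this list with a value in both libraries, those at least 2-fold higher at day 14 were Six3 and Isl1. They are transcription factors of the developing indirect and direct pathway. Six3 had 2.07 FPKM in sham, 3.67 on day 1, 3.58 on day 3, 4.07 on day 7, 5.997 on day 14 and 4.29 on day 28, with a log2 ratio of 1.49 on day 14. Isl1 had 0.491 FPKM in sham, 0.654 on day 1, 0.857 on day 3, 0.776 on day 7, 1.10 on day 14 and 1.35 on day 28, with a log2 ratio of 1.02 on day 14. Both lay above sham in all 5 post-stroke libraries. Among the genes with a value in both libraries, they were also those at least 2-fold higher at day 28, with log2 ratios of 1.02 for Six3 and 1.30 for Isl1. Isl1 passed the filter of 1 FPKM only through the libraries in which it was high. Ebf1, another gene of this list, had 0.507 FPKM in sham and 0.0437 on day 14, and the filter left it out.

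**Figure D3:**
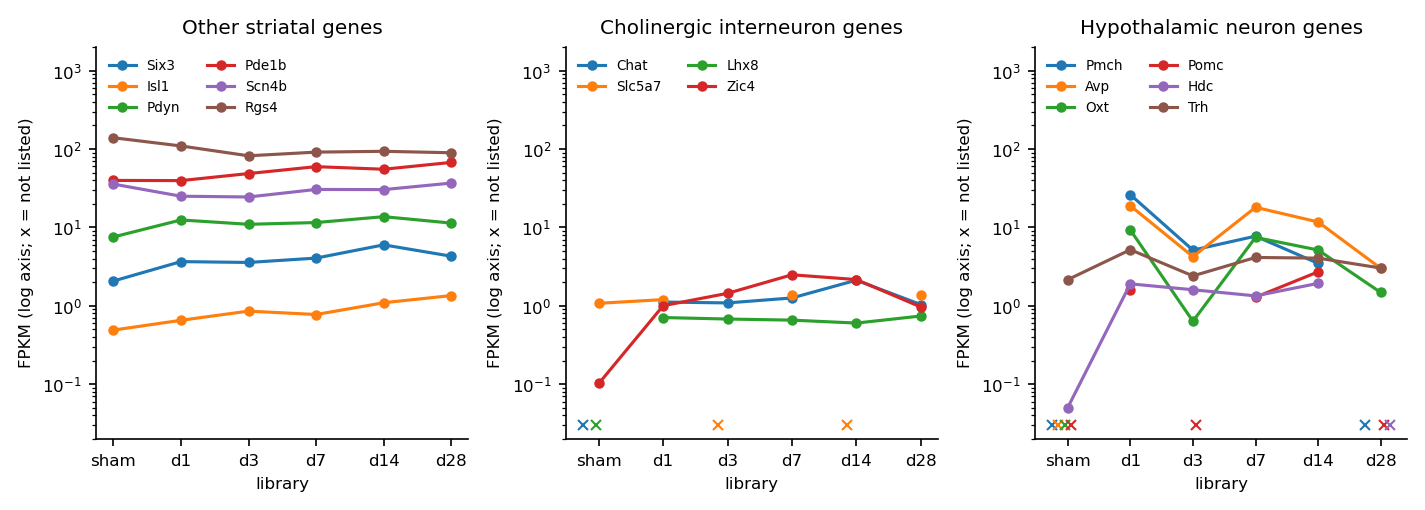
FPKM on a log axis, by library, of other striatal genes, of genes of striatal cholinergic interneurons and of genes of hypothalamic neurons; lines join consecutive libraries in which a gene was listed, and a cross at the foot of a panel marks a library in which it was not listed. Apart from Six3, Isl1, Chat, Slc5a7, Zic4, Pmch, Avp and Hdc, the genes were picked as examples after their values were seen. Chat and Lhx8 and the hypothalamic Pmch, Avp, Oxt and Pomc were not listed in sham and were listed in post-stroke libraries. Slc5a7 was listed in sham and was not listed on day 3 and day 14.

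Genes of deep regions outside the cortex also moved with the libraries. Chat, the enzyme that makes acetylcholine, was not listed in sham and had 1.12 FPKM at day 1, 1.09 on day 3, 1.26 on day 7, 2.12 on day 14 and 1.04 on day 28. Lhx8, a transcription factor of forebrain cholinergic neurons picked after its values were seen, was not listed in sham and lay between 0.603 and 0.742 FPKM afterwards. Zic4 had 0.102 FPKM in sham, 1.00 on day 1, 1.45 on day 3, 2.49 on day 7, 2.16 on day 14 and 0.968 on day 28. Of the 7 genes of striatal cholinergic interneurons, 2 were listed in sham and 4 or 5 in each post-stroke library. Chat is also used by some cortical interneurons.

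Of the hypothalamic neuron genes, Pmch, the precursor of melanin-concentrating hormone, was not listed in sham and had 26.2 FPKM at day 1, 5.13 on day 3, 7.74 on day 7 and 3.48 on day 14. Avp, vasopressin, was not listed in sham and had 18.9 FPKM at day 1, 4.24 on day 3, 18.1 on day 7, 11.7 on day 14 and 3.01 on day 28. Of the 13 genes on this list, 3 were listed in sham, 8 on day 1, 6 on day 3, 8 on day 7, 9 on day 14 and 5 on day 28. Of 15441 genes with a value, 11750 had one in all 6 libraries. The share of all genes listed in each single library is not given here. The counts of listed genes, here and for the cholinergic list, therefore have no background and are no finding about these genes. Over the 2 genes of this list with a value in all 6 libraries, the summed FPKM was 9.99 in sham and between 8.82 and 14.6 in the post-stroke libraries. Pmch and Avp were highest at day 1 and next highest at day 7. Of the 7 striatal genes with a value, 4 lay above sham at day 1, 5 on day 7 and 6 on day 14. The part of tissue from below the cortex in the values of the striatal genes was not tested.

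A pair of further lists bears on what else the tissue held. Ttr, the marker of the choroid plexus, had 279 FPKM in sham, 450 on day 1, 177 on day 3, 336 on day 7, 291 on day 14 and 549 on day 28. Microglia and macrophage genes had a median log2 ratio of 0.12, 1.57, 2.25, 1.93 and 0.14 on day 1, 3, 7, 14 and 28. The microglial median was high at day 3, 7 and 14. Over its whole locus Ppp1r1b lay below sham at day 3 and 7 and above it at day 14. At its main transcript start, described below, it had 184 FPKM in sham, 84.9 on day 3, 124 on day 7 and 121 on day 14. The part of immune cell RNA in these levels was not tested. At day 14, the remaining lists had medians of 0.24 for thalamic, 0.40 for hippocampal and 0.34 for midbrain dopamine neuron genes, -0.08 for choroid plexus, 0.07 for oligodendrocyte, -0.05 for astrocyte and 0.27 for endothelial genes.

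The partners of dopamine and cAMP signalling, of which 22 of 22 had a value, had medians of -0.06, -0.16, -0.11, -0.17 and 0.00 on day 1, 3, 7, 14 and 28, and none was 2-fold higher at any day. Below sham lay 13 of 22 on day 1, 19 on day 3, 18 on day 7, 14 on day 14 and 10 on day 28. At least 2-fold lower were 1 of 22 on day 1, beside 4.48% of all genes, and 2 of 22 on day 14, beside 6.92%. Gnas, the stimulatory G protein subunit, had 436 FPKM in sham, 409 on day 1, 392 on day 3, 483 on day 7, 532 on day 14 and 369 on day 28. The receptors and processing enzymes of the peptides had medians of 0.02, -0.03, -0.29, 0.24 and -0.01. Oprd1, the delta opioid receptor for enkephalin, had 3.17 FPKM in sham, 2.15 on day 1, 3.35 on day 3, 2.14 on day 7 and 2.65 on day 28, and was not listed at day 14, the library with the highest Penk. Oprm1, the mu opioid receptor, had at most 0.494 FPKM in any library, too low for a comparison.

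The splicing events added a layer that gene values do not show. Transcripts with Drd2 exon 6, the long receptor, made up 85.4% of the Drd2 FPKM assigned to either form in sham, 77.1% on day 1, 74.9% on day 3, 86.0% on day 7 and 79.1% on day 14. At day 28 the form without the exon was not listed, so the share was 100%. The long form had 6.96 FPKM in sham, 5.64 on day 1, 6.43 on day 3, 8.97 on day 7, 11.1 on day 14 and 12.4 on day 28. The short form had 1.19 FPKM in sham, 1.67 on day 1, 2.16 on day 3, 1.47 on day 7 and 2.94 on day 14. The long form was the larger in every library, and both forms were higher at day 14 than in sham.

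Tac1 exon 4 was in 38.9% of the FPKM in sham, 39.4% on day 1, 36.9% on day 3, 36.8% on day 7 and 39.2% on day 14, a narrow range, and in 11.6% on day 28. The FPKM with the exon was 10.2 in sham and 2.95 on day 28, and the FPKM without it was 16.1 and 22.4. The near-sham Tac1 level at day 28 was thus made of a different mixture of forms. Exon 6 was in 91.5% of the FPKM in sham, 88.9% on day 3, 88.0% on day 7, 78.3% on day 14 and 99.2% on day 28, and at day 1 the form without it was not listed. The FPKM without exon 6 was 2.22 in sham, 4.30 on day 3, 4.99 on day 7, 9.73 on day 14 and 0.208 on day 28. These shares rest on the FPKM that the authors' processing assigned to transcripts in each library, and with no read counts for the exon junctions they have no error.

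**Figure D4:**
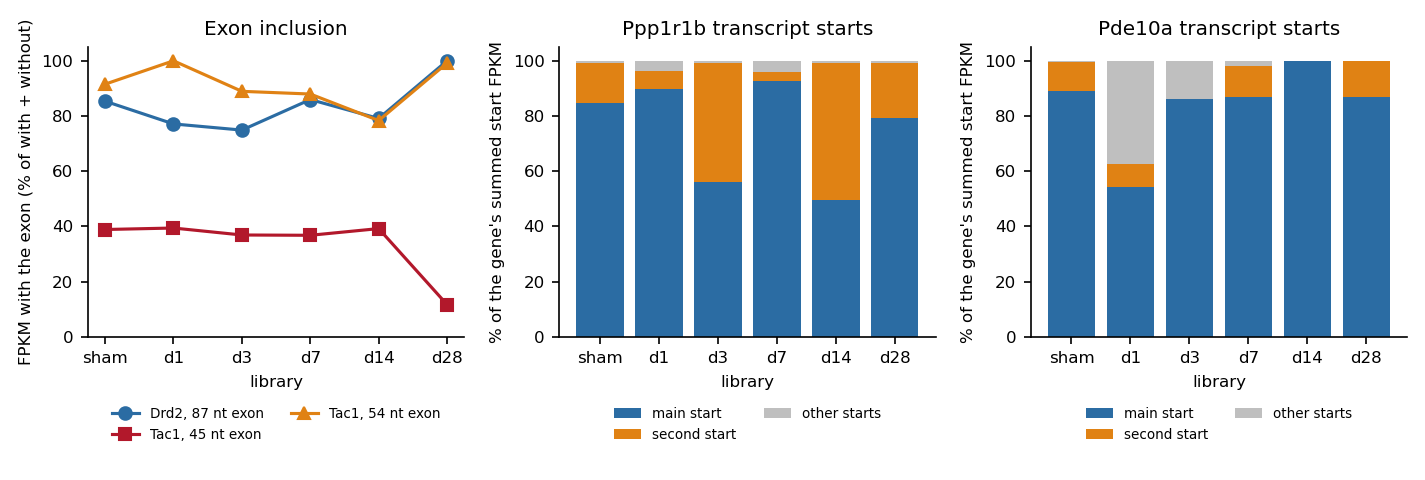
Left, FPKM of transcripts with an exon as a percentage of those with and without it, for the 87-base Drd2 exon and the 45- and 54-base Tac1 exons; middle and right, percentage of the summed start FPKM at each transcript start of Ppp1r1b and Pde10a (main start blue, second start orange, others grey), all by library. Tac1 exon 4 lay between 36.8% and 39.4% up to day 14 and at 11.6% on day 28, and the main Ppp1r1b start lay between 49.6% and 92.6%.

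Penk and Drd2 had a single transcript start in every library, Drd2 at position 49340300 on chromosome 9 of mm10. Ppp1r1b had its main start at position 98348404 of chromosome 11, the start of the annotated gene, with 84.7% of the start FPKM in sham, 89.9% on day 1, 55.9% on day 3, 92.6% on day 7, 49.6% on day 14 and 79.4% on day 28. A second start at 98350855, which opens a transcript annotated as a retained intron without a coding region, held 14.6%, 6.47%, 43.5%, 3.41%, 49.7% and 19.8% in the same order. At the main start alone the level was 184 FPKM in sham, 221 on day 1, 84.9 on day 3, 124 on day 7, 121 on day 14 and 229 on day 28. The day 14 level of Ppp1r1b was therefore above sham for the whole locus and below it at the main start.

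The main start of Pde10a, at 8801693 of chromosome 17, held 88.9% of the start FPKM in sham, 54.1% on day 1, 86.3% on day 3, 86.8% on day 7, 100% on day 14 and 86.7% on day 28. At this start alone the level was 16.7 FPKM in sham, 7.15 on day 1, 16.2 on day 3, 16.5 on day 7, 13.8 on day 14 and 19.9 on day 28, again lowest at day 1. Adora2a had its main start at 75324707 of chromosome 10, with 84.6% in sham, 45.1% on day 1, 56.0% on day 3, 66.8% on day 7, 71.1% on day 14 and 59.8% on day 28. Its starts numbered 3 on day 1, on day 3 and on day 14, which include its lowest and its highest level.

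RefSeq promoter windows on GRCm38.p6, from 250 bases before to 50 after a start, matched 5 of the 8 genes in 7 windows. Penk, Adora2a and Ppp1r1b had no window, so nothing is said of their promoters. The letters GGGCGG, the GC box, were found on either strand in 7 of 7 windows, beside 35.7% of all 32851 windows. TATAAA was found in 1 of 7, that of Rgs9, beside 13.6%. The letters TGACGTCA, the full cAMP response element, were found in 0 of 7, beside 1.79%. These are matches of letters and no binding was measured. The bases before the start are shown for the main start of Pde10a, a gene whose main start held less of the total at day 1 than in any other library, and for Rgs9, the gene with the narrowest range of levels, with GC box and TATAAA letters in capitals.
Pde10a, chr17:8801495-8801692, plus strand: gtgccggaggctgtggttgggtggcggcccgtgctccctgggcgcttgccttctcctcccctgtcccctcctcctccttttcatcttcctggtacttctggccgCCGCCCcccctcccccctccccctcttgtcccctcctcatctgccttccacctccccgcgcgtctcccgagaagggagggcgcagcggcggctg
Rgs9, chr11:109298182-109298431, minus strand: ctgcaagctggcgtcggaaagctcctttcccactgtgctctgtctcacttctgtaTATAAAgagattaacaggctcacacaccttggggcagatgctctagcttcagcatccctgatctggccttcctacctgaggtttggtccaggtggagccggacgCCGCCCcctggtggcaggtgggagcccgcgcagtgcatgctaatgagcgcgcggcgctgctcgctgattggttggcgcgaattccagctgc

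The genes most like the 7 genes over the 6 libraries were sought among 11558 genes listed in all of them, by the root mean square difference between a gene's centred log2 profile and the median profile of the 7 genes. The median of the 7 profiles, each centred on its own mean, was 0.36 on day 14, 0.24 on day 28 and -0.21 on day 3. The nearest 15 genes were Cygb, Txnl4b, Asic4, Tceal6, Pam16, Tfap4, Zc3hc1, Nudt16l1, Hprt, Ctnnbl1, Slc25a14, Tmem191c, Exoc7, Cacna1e and Dlk2, with differences from 0.0718 to 0.0891, beside a median of 0.313 over all genes searched. Cygb, the oxygen-binding protein cytoglobin, had 17.1 FPKM in sham, 17.1 on day 1, 14.6 on day 3, 16.7 on day 7, 22.7 on day 14 and 20.5 on day 28. None of the 15 was on a list used here. The 7 genes themselves lay between 0.129 for Rgs9 and 0.378 for Tac1 from their own median profile, so the profile was closer to that of these 15 genes than to that of any of the 7.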

How the data were processed

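Expression was measured by poly(A)-selected, strand-specific RNA-seq with paired-end reads of 150 bases, at a stated average of 33.6 M reads. Depths of single libraries are unknown, and neither intervals nor floors are given. The deposited values are FPKM that the authors computed for each transcript start, transcript end and splicing event. The submitters' processing notes name mm10, Trimmomatic 0.30, HISAT2 2.0.1 and HTSeq 0.6.1, and the program that made the event tables is not given in the sources used here.

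The value of a gene was the largest of its summed start events, its summed end events and any single event, taken by Ensembl identifier, of which 15429 of 15441 matched GENCODE M21. The plan had assumed 1 FPKM per gene. Genes with at least 1 FPKM in 1 of 2 libraries were compared with a pseudocount of 0.1, genes not listed being taken as 0 in the shares over all genes and left out of medians and list counts. No p-value was computed, as each group was 1 library. A group's samples were named from the labels. The steps were tested on simulated data.

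The members and lists were chosen with earlier results of these data known. Genes named are the 8 genes, the first 2 of each list, list genes at least 2-fold higher at day 14, and the 15 nearest in profile, with exceptions stated and some genes not reported here. Alternatives were 4 ways to build a gene's value or choose its events, pseudocounts, 2 scalings, a correction for transcript length, other bases, pan-neuronal reference genes, no filter and 1.5-fold. Python 3.11.15, numpy 2.4.6, pandas 2.3.3 and matplotlib 3.10.9 were used.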

Additional observations from a re-analysis of the deposited data

How the results depend on the processing

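For the 7 genes, 356 of 403 values under the alternatives moved by less than the typical difference between libraries at that day (the median size of the log2 ratio of all genes, 0.21 to 0.37), and 47 moved by more. Against the day 28 library in place of sham, the median of the 7 genes was -0.45 at day 3 and -0.25 at day 7, and 1 gene, Ppp1r1b (-1.10), was 2-fold lower at day 7. Relative to the pan-neuronal genes the median was 0.42 at day 3 and 0.33 at day 7. With 1.5-fold in place of 2-fold, 1 gene was higher and 1 lower at day 7 (15.3% and 6.05% of all genes), 3 were higher at day 14 (18.5%) and 1 at day 28 (8.93%). Of 915 list medians under the alternatives, 81 had another sign, and in 1 of these the value against sham was past 2-fold: the median of the striatal cholinergic interneuron genes at day 1, which rests on 2 genes, was 1.30 against sham and -0.48 against the median of the other 5 libraries. From end events alone, Rgs9 was 1.02 at day 1, but its listed end held at most 0.593 FPKM in any library. Over genes listed in both libraries only, a setting chosen after seeing the data, the share 2-fold higher at day 14 was 7.69%. No paired analysis was possible because each group is 1 library. The unknown depth and the lack of replicates limit every comparison; the causes of these shifts were not tested.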
